A study of Mus musculus with 12 samples.

Results

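The transcripts of the SENP family, 6 genes that encode the proteases of SUMO (Senp1, Senp2, Senp3, Senp5, Senp6 and Senp7), were followed through myogenic differentiation in C2C12 cells with and without a point mutation of PGAM2. The genes were taken by symbol, and each was found once among the 26967 genes listed at either day. C2C12 is a mouse myoblast line. WT cells and cells homozygous for the PGAM2-K176R knock-in were sampled undifferentiated in medium with 20% fetal bovine serum (d0) and 4 days into differentiation in 2% horse serum (d4). Each of these 4 groups holds 3 libraries. PGAM2 is the muscle form of the glycolytic enzyme phosphoglycerate mutase, and K176R puts arginine in place of a lysine that the study examined as a site of SUMO attachment. The mutant is a knock-in line made with CRISPR-Cas9, so its genotype cannot be told apart from other properties of that line. How the 3 libraries of a group were grown is not given in the labels, and p-values measure only the spread between these libraries.

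SUMO is a small protein that is joined to lysines of other proteins by an activating enzyme, a conjugating enzyme and ligases, and SENPs cut it off again. SENP1 and SENP2 also trim the SUMO precursors to their mature form and act on a broad range of SUMO conjugates. SENP3 and SENP5 sit largely in the nucleolus and prefer SUMO-2/3, while SENP6 and SENP7 shorten chains of SUMO-2/3.

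All 6 genes encode a cysteine protease, and the coding sequence around the active-site cysteine shows how alike the members are. It is given for 5 of them. The 45 bases below were read from GENCODE transcripts on GRCm38 (mm10), 5′ to 3′ in the sense of the gene, with the codon of the catalytic cysteine in capitals.
Senp1: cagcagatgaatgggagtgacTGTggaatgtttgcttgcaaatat
Senp2: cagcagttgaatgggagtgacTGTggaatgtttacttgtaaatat
Senp5: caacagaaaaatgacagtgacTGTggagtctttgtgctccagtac
Senp6: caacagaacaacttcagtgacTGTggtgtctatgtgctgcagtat
Senp7: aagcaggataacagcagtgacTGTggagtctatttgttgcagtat
Each of these coding sequences held a single place where an aspartate, a cysteine and a glycine codon follow each other, and the cysteine codon was TGT in all 5. Senp1 and Senp2 shared 42 of the 45 bases, Senp5 and Senp6 shared 37, and Senp6 and Senp7 shared 36. The lowest match was between Senp2 and Senp6, with 25 bases.

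Senp1 spans chr15:98038744-98093744, Senp2 chr16:22009484-22049269, Senp3 chr11:69673115-69682084, Senp5 chr16:31959672-32003287, Senp6 chr9:80066903-80144953 and Senp7 chr16:56048338-56190012. The cysteine of Senp1 is codon 599 of 640, in exon 17 of 18 at chr15:98045366-98045368 on the minus strand. Senp2 carries it at codon 547 of 588, in exon 16 of 17 at chr16:22044243-22044245 on the plus strand. In Senp5 it is codon 707 of 749, in exon 9 of 10 at chr16:31964288-31964290 on the minus strand. For Senp5 the printed bases cross an exon border. Senp6 has it at codon 1049 of 1132, in exon 22 of 23 at chr9:80142354-80142356 on the plus strand, and Senp7 at codon 979 of 1037, in exon 23 of 24 at chr16:56186168-56186170 on the plus strand. The last exon but one thus holds the active-site codon in these 5 transcripts.

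Library totals ranged from 16098407 to 21412560 reads in genes. All 11 myoblast and myotube markers had reads in every group, and their summed level was 1439 to 1728 RPM (reads scaled to the library total, without TMM) in WT and 1448 to 1783 in mutant cells at d0, against 16503 to 16926 in WT and 5682 to 5891 in mutant cells at d4. Of 6 pluripotency markers, 4 were at 0 reads in each d0 group, 5 in WT d4 and 6 in mutant d4. A list of 6 fibroblast and smooth muscle genes summed to 695 to 778 RPM in WT d0 and 51.3 to 56.2 in mutant d0, and to 549 to 586 in WT d4 and 183 to 202 in mutant d4. A list of 8 blood, endothelial and epithelial genes summed to 57.4 to 66.8 RPM in WT d0 and 185 to 212 in mutant d0. Of its 4 genes tested at d0, 3 were called higher and 1 lower in the mutant, all with a log2 change over 1 in size. At d4 the direction of the sums was the opposite, with 15.8 to 17.3 RPM in WT and at most 12.7 in the mutant. A list of 4 neuronal genes summed to 56.6 to 121 RPM in WT d0 and 193 to 256 in mutant d0, and to 63.6 to 81.2 in WT d4 and 86.5 to 91.0 in mutant d4. Of 7 pancreatic genes 4 were tested at d0, and 3 were called higher in the mutant with a log2 change over 1, as were 422 of 13920 genes tested. Their list summed to 9.82 to 11.8 RPM in WT d0 and 17.5 to 30.1 in mutant d0. At d4 the sums were 12.3 to 16.2 RPM in WT and 24.7 to 30.3 in the mutant. The part of these differences in the SENP values was not tested. The RNA Rn7sk, which has no poly(A) tail, was at 220 RPM in mutant d0 replicate 3 and at most 7.68 in the other 11 libraries.

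Compared per gene length within a group (FPKM, the authors' fragment values per unit of gene length, scaled within each day), Senp3 was the most abundant SENP transcript everywhere. It stood at 26.7 ± 2.73 FPKM in WT d0 (SD, n = 3), 38.7 ± 3.54 in mutant d0, 26.8 ± 2.89 in WT d4 and 23.6 ± 1.05 in mutant d4. Its share of the summed FPKM of the family was 40.1% in WT d0, 52.0% in mutant d0, 44.7% in WT d4 and 43.2% in mutant d4. Senp7 was the least abundant in all 4 groups, from 0.929 ± 0.0757 FPKM in mutant d0 to 2.05 ± 0.0894 in mutant d4.

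Between these ends, Senp5, Senp6 and Senp2 followed in that order in WT cells at d0 and at d4, each overlapping the next between libraries, and then Senp1 apart from them. In mutant d0 cells Senp6 dropped to 6.85 ± 1.17 FPKM and overlapped Senp1 at 6.98 ± 0.152. In mutant d4 cells the order was Senp3, Senp6, Senp5, Senp2, Senp1, Senp7, and no neighbours in it overlapped.

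**Figure D1:**
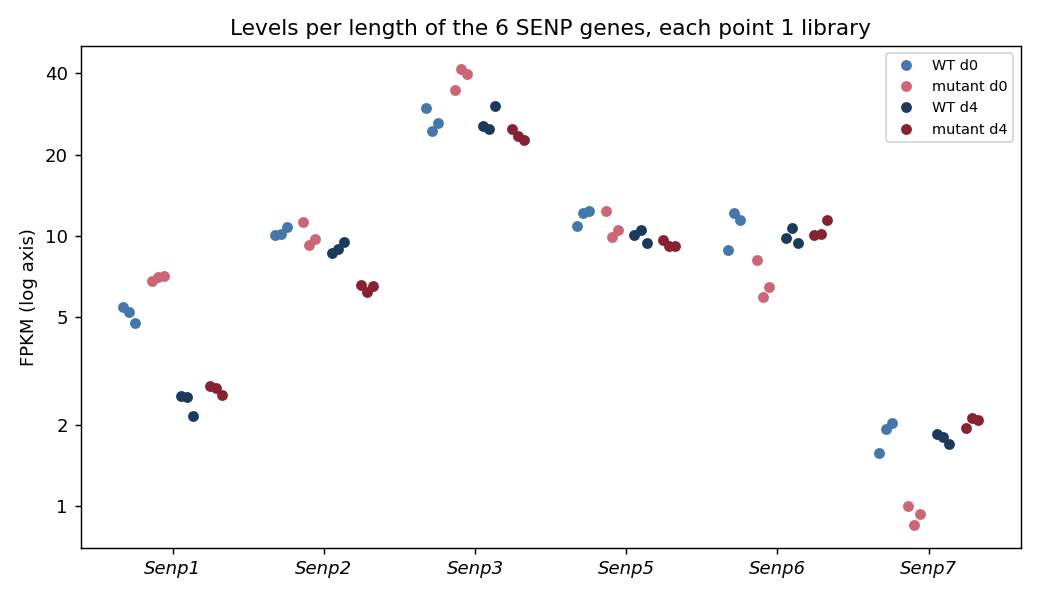
FPKM of the 6 SENP genes on a log axis, each point 1 library, colored by group (3 libraries per group). Senp3 lies above all other members in every group and Senp7 below them, with its lowest mean, 0.929 FPKM, in the mutant d0 libraries.

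Values between days are given from here on as CPM, reads brought to a common library size by TMM scaling over all 12 libraries, since FPKM of d0 and d4 were scaled separately. The genotypes were compared at d0 on counts with edgeR's quasi-likelihood test and at d4 on log2(FPKM + 1) with limma, and the days within a genotype with edgeR, all p-values being adjusted over all genes tested. With 3 libraries against 3, an exact two-sided permutation test of a single gene cannot go below p = 0.1.

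At d0 the family split. In mutant cells, Senp1 and Senp3 were higher and Senp6 and Senp7 lower than in WT cells, whereas Senp2 and Senp5 did not pass the test. These are 4 of 6 members at an adjusted p under 0.05, with 44.3% of the 13920 genes tested passing it, 20.4% upward and 23.9% downward. The median log2 fold change was -0.10 over the members and -0.02 over all genes tested.

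Senp1, a SENP with broad activity on SUMO conjugates, had 65.0, 61.9 and 56.4 CPM in the WT d0 libraries and 82.2, 83.4 and 84.3 in the mutant d0 libraries. It had 30.6, 30.6 and 26.0 CPM in WT d4 and 33.1, 32.6 and 30.7 in mutant d4. Both d0 groups lay above both d4 groups, and the mutant lay above WT at each day without overlap. The d0 difference was 1.36-fold (log2 fold change 0.42, SE 0.09, edgeR adjusted p = 0.00261). At d4 the log2 difference was 0.12 with a 95% interval from -0.06 to 0.29 (limma adjusted p = 0.230).

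Senp2, whose product resembles SENP1 in range, had 69.6, 70.2 and 74.5 CPM in WT d0 and 78.6, 63.9 and 67.2 in mutant d0. In WT d4 it had 60.1, 62.8 and 66.6 CPM, and in mutant d4 45.6, 42.9 and 45.0. The d0 groups overlapped, and the mutant d4 libraries were the lowest of all 12. At d0 the log2 difference was -0.06, with a 95% interval from -0.27 to 0.15 (edgeR adjusted p = 0.637). At d4 Senp2 was the only member called between genotypes, at 6.42 ± 0.210 FPKM in the mutant and 9.02 ± 0.424 in WT (SD, n = 3), a 1.40-fold lower mean. Its log2 fold change on the log2(FPKM + 1) scale was -0.43 (SE 0.05, limma adjusted p = 0.000364). This is 1 of 6 members, against 55.7% of the 13252 genes tested at d4, of which 26.4% were higher and 29.3% lower in the mutant. No member passed the d4 test with an absolute log2 change over 1, and 7.73% of genes did.

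Senp3, the nucleolar SENP linked to ribosome assembly, had 108, 88.7 and 94.9 CPM in WT d0 and 128, 151 and 144 in mutant d0. The d4 values were 93.6, 91.5 and 111 CPM in WT and 90.3, 85.3 and 82.8 in the mutant. Mutant d0 stood above all other libraries, and the other 3 groups lay close together, with WT d0 overlapping WT d4 and mutant d4. The d0 difference was 1.45-fold (log2 fold change 0.51, SE 0.10, edgeR adjusted p = 0.00184). At d4 it was -0.17 with limma (adjusted p = 0.0906), and edgeR on reads worked back from FPKM called it lower (-0.18, adjusted p = 0.0191).

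Senp5, the second nucleolar SENP, was the steadiest member. It had 79.0, 88.6 and 90.1 CPM in WT d0 and 91.3, 71.7 and 76.3 in mutant d0, then 73.6, 77.3 and 69.5 in WT d4 and 70.4, 67.0 and 66.8 in mutant d4. Neighbouring groups overlapped throughout. Neither genotype comparison passed, with 95% intervals of the log2 difference from -0.37 to 0.10 at d0 (edgeR adjusted p = 0.319) and from -0.21 to 0.04 at d4 (limma adjusted p = 0.209). With both replicates 1 of d0 left out, the d0 difference was -0.27 and was called (adjusted p = 0.0174).

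Senp6, one of the chain-trimming SENPs, had 62.3, 85.5 and 80.5 CPM in WT d0 and 58.2, 41.6 and 45.2 in mutant d0. The d4 libraries had 69.3, 76.2 and 67.1 CPM in WT and 71.2, 71.3 and 80.2 in the mutant. The d0 groups did not overlap, although WT replicate 1 and mutant replicate 1 came within a few CPM of each other, and the d4 groups did. The WT mean at d0 was 1.58-fold the mutant mean (log2 fold change -0.69, SE 0.15, edgeR adjusted p = 0.00289), and -0.93 without these 2 libraries. The d4 difference was 0.07, with a 95% interval from -0.08 to 0.23 (limma adjusted p = 0.376).

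Senp7, the other SENP that acts on SUMO-2/3 chains, had 21.9, 26.9 and 28.2 CPM in WT d0 and 14.2, 11.9 and 13.0 in mutant d0. It had 25.9, 25.5 and 24.0 CPM in WT d4 and 27.3, 29.7 and 29.3 in mutant d4. The 3 mutant d0 libraries lay far below the other 9. Its d0 change was the largest of the family, with a WT mean 1.97-fold the mutant mean (log2 fold change -1.01, SE 0.13, edgeR adjusted p = 9.76e-05). It was the 1 member that passed the test with a log2 change over 1 in size, as 12.2% of genes tested did. It lay near that limit, at -0.98 with DESeq2, -0.97 without WT replicate 2, -0.93 without WT replicate 3 and -0.94 without mutant replicate 2. At d4 the mutant libraries lay above the WT ones without overlap, by 0.14 (limma adjusted p = 0.139), and edgeR on reads called it higher (0.21, adjusted p = 0.0398).

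**Figure D2:**
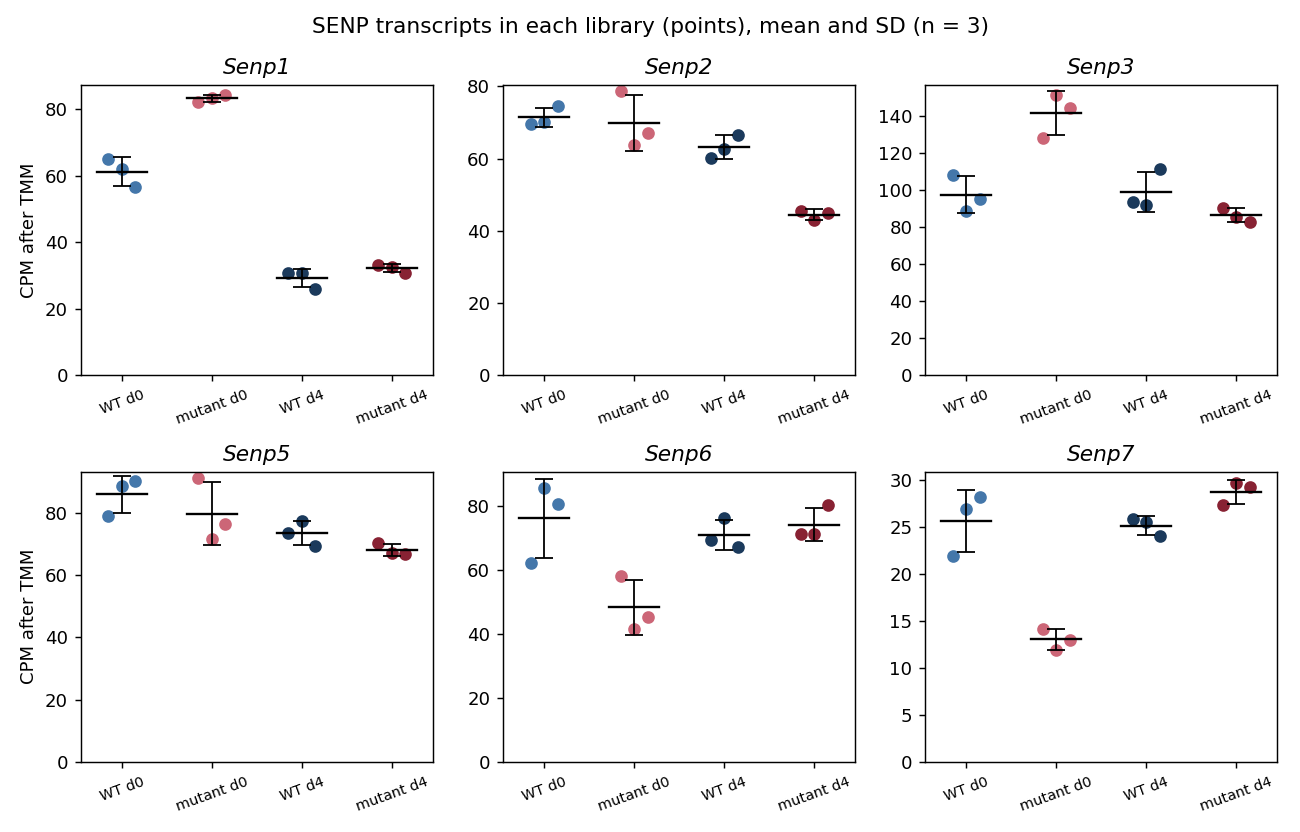
CPM of each SENP gene by library (points), with the group mean (line) and SD (bars), n = 3 per group, axes from 0. The mutant d0 libraries are the highest for Senp1 and Senp3 and the lowest for Senp6 and Senp7, and the mutant d4 libraries are the lowest for Senp2.

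Between d0 and d4, 1 member passed the test in WT cells. The days also differ in serum and time in culture, which cannot be told apart from differentiation here. Senp1 fell 2.10-fold from d0 to d4 (log2 fold change -1.02, SE 0.10, edgeR adjusted p = 1.93e-07), and the other 5 did not pass, where 62.6% of 14336 genes tested did, 29.9% upward and 32.6% downward. It was the 1 member past a log2 change of 1, against 25.6% of genes. The other 5 had log2 fold changes between -0.18 for Senp5 and 0.07 for Senp3. The call of Senp1 held in each of 13 alternative fits, with changes from -1.16 to -0.95, the smallest of them without WT d4 replicate 3. Without WT d0 replicate 1, Senp5 was also called lower (-0.22, adjusted p = 0.0182).

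In mutant cells 5 of 6 members changed between days, where 75.2% of 13755 genes tested did, 36.8% upward and 38.4% downward. Senp1 fell 2.59-fold (log2 fold change -1.31, SE 0.08, edgeR adjusted p = 1.97e-10), Senp3 1.64-fold (-0.65, SE 0.08, adjusted p = 9.57e-07) and Senp2 1.57-fold (-0.59, SE 0.09, adjusted p = 1.86e-05). Senp7 rose 2.21-fold (95% interval of the log2 change from 0.98 to 1.43, adjusted p = 2.33e-08) and Senp6 1.54-fold (0.68, SE 0.11, adjusted p = 3.02e-05). Senp5 did not pass (-0.17, adjusted p = 0.103), but 3 of 13 alternative fits called it lower. Among them were those without mutant d0 replicate 2 (-0.26, edgeR adjusted p = 0.0108) and with no filter on low counts (-0.23, edgeR adjusted p = 0.0253). Senp1 and Senp7 exceeded a log2 change of 1, as did 34.4% of genes tested. This comparison shares the mutant d0 libraries with the genotype comparison at d0, so these comparisons are not independent.

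The change of the mutant minus that of WT cells was tested over all 12 libraries, so it is not independent of the comparisons above. It passed for 5 of 6 members, against 45.2% of 15114 genes tested, 21.9% upward and 23.3% downward. Senp7 alone passed with a value over 1 in size, as 16.6% of genes did. It was 1.17 for Senp7 (SE 0.15, edgeR adjusted p = 4.48e-06), 0.73 for Senp6 (SE 0.17, adjusted p = 0.00160), -0.73 for Senp3 (SE 0.13, adjusted p = 0.000134) and -0.47 for Senp2 (SE 0.12, adjusted p = 0.00330). That of Senp5 was 0.00, with a 95% interval from -0.26 to 0.26. The value for Senp1, -0.30, lay at the limit of the test (adjusted p = 0.0493), and 6 of 19 alternative fits called it, with adjusted p from 0.000462 to 0.369. It kept the call without WT d0 replicate 1 or WT d4 replicate 3 and lost it without any other single library. Scaling by library totals alone moved the median of all genes from 0.01 to 0.18 in this comparison, and under it Senp2 was not called (-0.30, adjusted p = 0.0571).

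**Figure D3:**
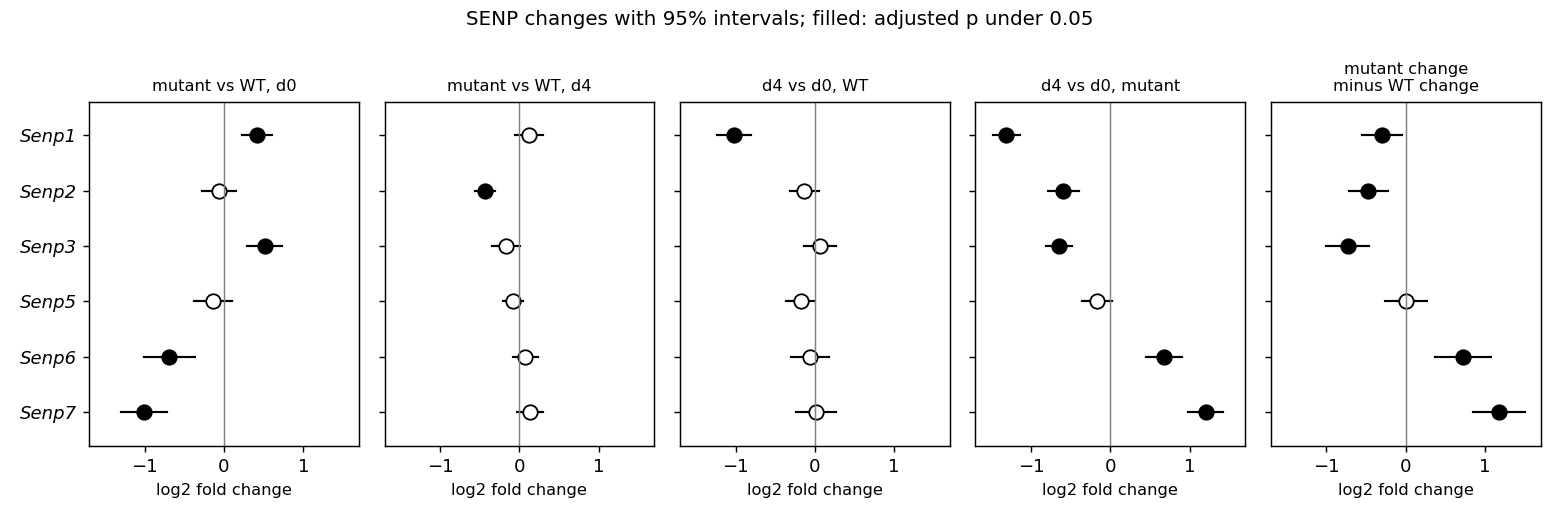
Log2 fold changes of the 6 SENP genes in the 5 comparisons (points, filled where the adjusted p was under 0.05) with 95% intervals (lines). At d4 Senp2 alone is filled between genotypes and in WT cells Senp1 alone between days, whereas 5 members are filled in mutant cells between days.

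Summed over the family as RPM, the genotypes overlapped at each day. The 6 genes together took 404 to 442 RPM in WT d0 and 406 to 454 in mutant d0, and 343 to 350 in WT d4 and 342 to 350 in mutant d4. Both d4 groups lay below both d0 groups. The d4 overlap depended on the scale, as TMM factors were 0.957 to 0.972 in WT d4 and 1.02 to 1.04 in mutant d4. As CPM, the d4 sums of all WT libraries lay above those of all mutant libraries. At d0 the CPM sums of the genotypes overlapped.

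The d0 difference between genotypes also followed gene length across all genes. Over protein-coding genes, split into 5 groups of nearly equal size by length of the gene model, the median log2 fold change fell from 0.12 in the group of shortest genes to -0.19 in the group of longest. Between days it rose with length in mutant cells, from -0.28 to 0.25, while in WT cells the medians of these groups lay between -0.05 and -0.01. Between genotypes at d4 the median rose with length, from -0.10 to 0.07, and for the difference of the changes from -0.28 to 0.24. Senp7 has the longest gene model of the family, 13966 bases, and Senp3 the shortest, 3632 bases, while Senp1, which was higher in the mutant, has 11873. The d0 difference followed GC content too, with a median of -0.21 in the group of lowest GC content and 0.10 in the highest. The longest transcript had 40.2% GC for Senp7, 44.8% for Senp5 and Senp6, 46.7% for Senp2, 48.1% for Senp1 and 54.0% for Senp3. With the trend in GC content and length removed from each library, the 4 members stayed called at d0, at 0.59 for Senp1 (edgeR adjusted p = 6.41e-05), 0.37 for Senp3 (adjusted p = 0.000295), -0.57 for Senp6 (adjusted p = 0.000733) and -0.64 for Senp7 (adjusted p = 0.000226). The d0 change of Senp7 was thus smaller by more than 1.5 times, as were its change between days in the mutant (0.71) and the difference of the changes (0.65), all still called. The fall of Senp3 between days in the mutant also shrank, to -0.42, and Senp5 at d4 became called (-0.14, limma adjusted p = 0.0403). Senp5 also became called between days in the mutant (-0.25, edgeR adjusted p = 0.000923). The difference of the changes for Senp1 was larger, at -0.52 (adjusted p = 0.000462).

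**Figure D4:**
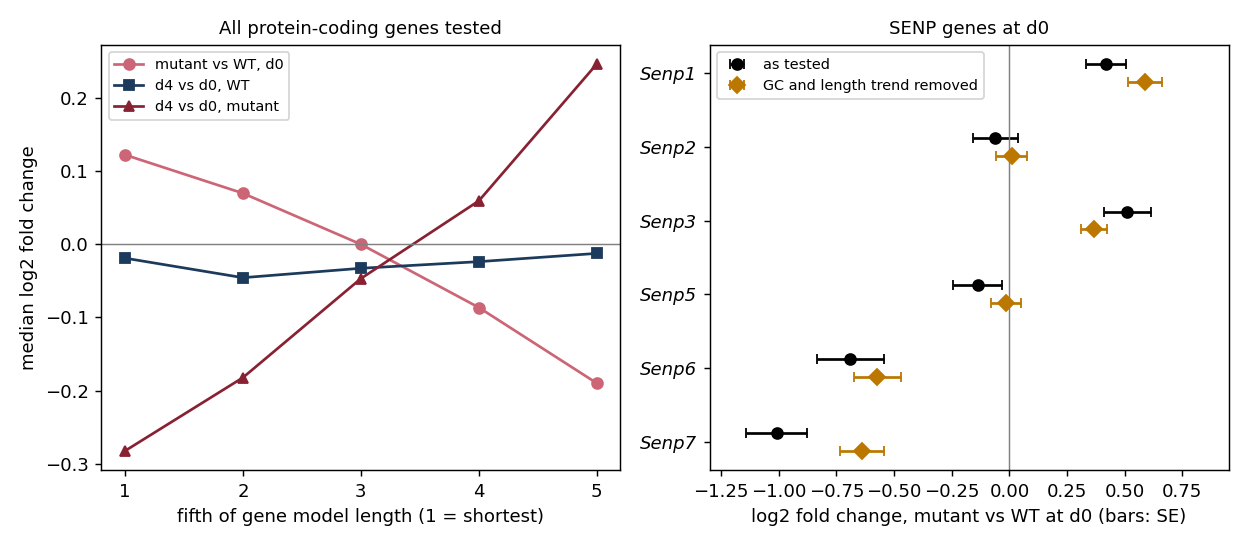
Left, median log2 fold change of all protein-coding genes tested, in 5 groups by gene model length, in 3 comparisons. Right, log2 fold change of the SENP genes at d0 (points, with bars of 1 SE) as tested and with the GC and length trend removed: the signs of Senp1, Senp3, Senp6 and Senp7 stay, and Senp7 moves from -1.01 to -0.64.

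Of the d0 libraries, the replicates 1 lay farthest from their group means along GC content, in opposite directions. In the group of lowest GC content, of 5 such groups of genes, WT d0 replicate 1 lay 0.15 below its group mean (median, log2 scale) and mutant d0 replicate 1 lay 0.19 above it. Without both libraries the 4 members called at d0 were called again, at 0.51 for Senp1, 0.69 for Senp3, -0.93 for Senp6 and -1.14 for Senp7. The count of all genes called went from 6164 to 7846 in this fit. Leaving these libraries out widens the genotype gap along GC content, so the fit cannot test the part of that trend in the calls.

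Proliferation genes also differed in these comparisons. Of 20 S to M phase genes, 11 were higher and 2 lower in mutant d0 cells, with a summed level of 3798 to 3993 RPM against 2909 to 3554 in WT d0, where 20.4% of all genes were higher. At d4 the direction was the opposite, with 10 lower and 0 higher (limma, 29.3% of all genes lower) and 384 to 405 RPM in the mutant against 474 to 494 in WT. All 20 fell from d0 to d4 in each genotype. Of the 11 myogenic genes, 6 of 10 tested were lower and 1 higher in mutant d0 cells, where 23.9% of all genes were lower. The median log2 fold change of those tested was -2.39, although the summed levels overlapped at d0. In mutant d4 cells 10 of 11 were lower and 1 higher, with 29.3% of all genes lower. The part of these cell states in the SENP values was not tested, and in these bulk libraries fewer cells of a kind and less RNA per cell cannot be told apart.

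Because Senp6 and Senp7 moved together, the 250 bases before their RefSeq start sites are shown, read from the plus strand of GRCm38.p6 with the searched motifs in capitals. The motifs, searched on both strands, were CAGCTG and CAGGTG (E-boxes, bound by myogenic factors such as MYOD1), CCGGAAGT (ETS factors) and GGGCGG (GC box, bound by SP factors).
Senp6, chr9:80066653-80066902: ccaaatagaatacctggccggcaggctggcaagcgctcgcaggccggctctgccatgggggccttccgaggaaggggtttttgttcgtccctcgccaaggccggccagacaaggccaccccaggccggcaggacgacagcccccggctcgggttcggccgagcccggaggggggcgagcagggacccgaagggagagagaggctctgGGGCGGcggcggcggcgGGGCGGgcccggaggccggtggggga
Senp7, chr16:56075154-56075403: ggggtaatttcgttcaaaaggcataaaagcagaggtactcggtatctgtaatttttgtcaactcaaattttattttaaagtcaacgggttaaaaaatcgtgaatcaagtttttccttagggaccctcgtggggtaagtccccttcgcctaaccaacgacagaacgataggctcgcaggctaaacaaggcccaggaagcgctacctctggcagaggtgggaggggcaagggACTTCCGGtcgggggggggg
The window of Senp6 held 2 GC boxes and was 74.0% G and C, and that of Senp7 held 1 ETS motif, on the minus strand, and was 49.6% G and C. Neither held an E-box of these letters, but another of the 3 windows that RefSeq gives for Senp7, at chr16:56057280-56057529, held 1 CAGCTG and 1 CAGGTG. Of 32851 RefSeq windows of the same length, 32.7% held a GC box, 2.88% the ETS motif, 13.0% CAGCTG and 17.2% CAGGTG. A match of letters is a description of the window only.

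Across the 12 libraries, Senp6 and Senp7 had a root mean square difference of 0.19 between their log2 CPM profiles, each centred on its mean. Senp2 and Senp5 were as near each other, at 0.18, and Senp1 and Senp7 were the farthest apart of the 15 pairs. Among 10319 protein-coding genes the 2 nearest to Senp1 were Kpnb1, which encodes importin beta (0.0752), and Eefsec (0.0761), and those nearest to Senp3 were Tbcd (0.0600) and Map2k2 (0.0656). Nearest to Senp6 were Setd2, a histone H3 methyltransferase gene (0.0580), and Lrrc58 (0.0630), and nearest to Senp7 were Chd9 (0.0701) and Ick (0.0714). For Senp2 they were Rars2 (0.0493) and Slc31a1 (0.0634), and for Senp5 Rdx (0.0634) and Tnks2 (0.0636). These genes share the libraries and their composition with the members, so their likeness is a description.

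Reads of some members can be shared with neighbours, since no source used here says whether counting kept the strands apart. Senp1 overlaps the first part of Pfkm, the muscle phosphofructokinase gene, head to head over 1156 bp. Pfkm had 474, 489 and 531 CPM in WT d4 against 119, 120 and 116 in mutant d4 (log2 fold change of FPKM -2.03, limma adjusted p = 7.20e-08), whereas Senp1 was a little lower in WT d4. Senp5 overlaps Ncbp2 on the other strand over 2110 bp, and Ncbp2, a cap-binding protein gene, had 43.0 to 59.2 CPM over the 12 libraries. Senp6 overlaps the antisense gene Gm17477 over 3043 bp. Senp3 lies 691 bp before Eif4a1 on the same strand.

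Eif4a1, a translation initiation helicase gene, was higher in mutant d0 cells (0.57, edgeR adjusted p = 0.000787) and fell in mutant cells (-1.60, adjusted p = 2.84e-12), as Senp3 did. It also fell in WT cells (-0.83, adjusted p = 2.36e-07), where Senp3 was at 0.07. No 50-base stretch was shared between members. Of the 50-base stretches of Senp3, 12.1% are also in the pseudogene Gm6580, which had 3 reads in all at d0, and 6.33% of those of Senp1 lie on the other strand of Gm26513, which had at most 16 reads in a library.

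The 4 other proteases considered were called at d0 as well, 2 upward and 2 downward. Of all genes tested, 44.3% were called at d0, 20.4% upward and 23.9% downward. Desi1, a SUMO protease of another fold, had 64.0 to 76.5 CPM in WT d0 and 97.4 to 104 in mutant d0 (log2 fold change 0.47, edgeR adjusted p = 0.00183), and it was higher in the mutant at d4 too (0.40, limma adjusted p = 0.000720). Uspl1, a SUMO protease of Cajal bodies, was higher at d0 (0.45, adjusted p = 0.00244). Desi2 was lower at d0 (-0.45, adjusted p = 0.00364). With the GC and length trend removed, Uspl1 was at 0.68 and Desi2 at -0.25, both still called. Senp8, which cuts NEDD8 and not SUMO, had 7.52 to 9.56 CPM in WT d0 and 5.86 to 6.94 in mutant d0 (-0.44, adjusted p = 0.0383), a call held by 4 of 14 alternative fits. Between days in WT cells, Uspl1 was at 0.24 (adjusted p = 0.0528) and was called in 5 of 13 alternative fits, among them those without WT d0 replicate 2 (0.28, adjusted p = 0.0496) and without WT d4 replicate 2 (0.30, adjusted p = 0.0458). Desi1 was at -0.18 (adjusted p = 0.106) and was called in 3 of 13, among them that without WT d0 replicate 2 (-0.23, adjusted p = 0.0472). Between days in mutant cells, Senp8 rose (0.50, edgeR adjusted p = 0.0102) and Desi1 fell (-0.26, edgeR adjusted p = 0.00357). Each was called in 12 of 13 alternative fits, and 75.2% of all genes tested were called there. With the GC and length trend removed, Desi1 was at 0.0020.

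Of 20 genes of the SUMO machinery, 5 were higher and 3 lower in mutant d0 cells (median log2 fold change 0.10), and 7 were higher and 6 lower at d4 (median 0.02). Of all genes tested, 44.3% were called at d0 and 55.7% at d4, so these shares lie near the background. At d0 the largest called changes were those of Rwdd3, an enhancer of conjugation (-0.49, edgeR adjusted p = 0.0475), Trim28 (0.48, adjusted p = 0.00996), Mul1, a mitochondrial ligase gene (0.43, adjusted p = 0.0206), and Pias1, a SUMO ligase gene (-0.43, adjusted p = 0.0176). Only Trim28 of these kept its call without any single d0 library. Mul1 and Pias1 lost it without WT or mutant replicate 2 or 3 (adjusted p from 0.0560 to 0.0815), and Rwdd3 without WT or mutant replicate 1 or 3 (adjusted p from 0.0987 to 0.147). At d4 they were Pias3 (0.47, limma adjusted p = 0.000354), Pias2 (0.43, adjusted p = 7.47e-05), Trim28 (0.39, adjusted p = 0.000204) and Pias1 (0.37, adjusted p = 0.00569).

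Between days, 5 genes of this machinery rose and 9 fell in mutant cells (median -0.16), and 1 rose and 9 fell in WT cells (median -0.12), where 75.2% of all genes tested were called in mutant and 62.6% in WT cells. Both subunits of the activating enzyme fell, Uba2 by 1.35 in mutant (edgeR adjusted p = 2.96e-11) and 0.91 in WT cells (adjusted p = 1.25e-07), and Sae1 by 1.06 in mutant (adjusted p = 9.36e-10) and 0.36 in WT cells (adjusted p = 0.00119) on the log2 scale. With the GC and length trend removed, Sae1 was at -0.69 in mutant cells, and Pias1 was at -0.27 between genotypes at d0, both still called. Pias1 rose in mutant cells (0.91, adjusted p = 1.74e-06) and was at 0.06 in WT cells (adjusted p = 0.684).

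Of 19 genes of proteins or structures at which SENPs act (nuclear pore, nucleolus, centromere and PML bodies), 8 were higher and 2 lower in mutant d0 cells (median 0.18), against 20.4% of all genes tested higher and 23.9% lower. From d0 to d4, 16 of 18 tested fell and 1 rose in mutant cells (median -0.81), and 12 of 19 fell and 2 rose in WT cells (median -0.73), against 38.4% of all genes falling in mutant and 32.6% in WT cells.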

How the data were processed

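Poly(A) RNA of 12 libraries was sequenced as paired ends on an Illumina platform. Per the submitters' processing notes, the build was mm10 and DESeq2 1.20.0 was among the tools. Aligner, read counter and strand setting: not given in the sources used here. Gene-level read counts were deposited by the authors for WT d0, mutant d0 and mutant d4, and FPKM for all 12 libraries. The deposited FPKM were divided by gene length and by a factor per library that was set separately for each day. In the WT d4 table, 3 count columns carry the mutant d4 names and equal those counts, so they were not used. WT d4 reads were worked back from FPKM, and 100% came out whole within 0.01. They list 23954 genes at d0 and 24787 at d4, of which the 21774 at both days entered the comparisons of days.

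edgeR 4.0.16 (TMM, its filter on low counts) tested counts and worked-back reads. limma 3.58.1 tested log2(FPKM + 1) at d4 for genes with at least 0.5 FPKM in 3 libraries, which understates changes of low genes. Benjamini-Hochberg adjustment ran over all genes tested, and the scripts were tested on simulated data. Counts of called genes used an adjusted p under 0.05. Alternatives were DESeq2 1.42.0, other scalings, filters and pseudocounts, a replicate block, each library left out and, chosen after seeing the data, removal of the GC and length trend per library and both replicates 1 of d0 left out.

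The members and lists were chosen with earlier results of these data known. All members are described. Of the SUMO machinery, up to 4 called genes with the largest change and up to 3 others with the highest mean were named per comparison, except withheld items, which are not reported here. Neighbours were found by coordinates, and profiles were compared among protein-coding genes of at least 5 CPM. Coordinates in the tables equal those of GENCODE on GRCm38 for all 6 members.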

Additional observations from a re-analysis of the deposited data

Results flagged for a closer look

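The change from d0 to d4 differed between mutant and WT cells for 5 SENP genes by the interaction test over 12 libraries (edgeR, adjusted p under 0.05). Of all genes tested, 45.2% were called by it, 21.9% upward and 23.3% downward. The mutant log2 change minus that of WT was 1.17 for Senp7, 0.73 for Senp6, -0.73 for Senp3, -0.47 for Senp2 and -0.30 for Senp1. Uspl1 had -0.38 by the same test. Of the 20 genes of the SUMO machinery, 4 were called higher and 7 lower, not all of which are named here. Among them, Pias1 (0.84), Pias2 (0.64) and Pias3 (0.37) had higher values, and Sae1 (-0.71), Mul1 (-0.66), Sumo3 (-0.53), Uba2 (-0.45) and Rnf4 (-0.42) lower ones. The call of Pias3 was lost with DESeq2 (0.35, adjusted p = 0.0546), without both replicates 1 of d0 (0.23, edgeR adjusted p = 0.136) and without each single library except WT d0 replicate 3, mutant d0 replicate 2 and WT d4 replicate 1 (edgeR adjusted p from 0.0586 to 0.102). With the GC and length trend removed, Sae1 was at -0.37, Sumo3 at -0.29, Pias3 at 0.56 and Uspl1 at -0.71, all still called. Uspl1 lost its call with library totals (-0.21, edgeR adjusted p = 0.182) and without WT d4 replicate 3 (-0.28, edgeR adjusted p = 0.0621). The neighbours of members also differed, at -1.98 for Pfkm, -0.78 for Eif4a1 and 0.30 for Ncbp2, whose call was lost without mutant d0 replicate 3, WT d4 replicate 1 or 2, or mutant d4 replicate 2 (edgeR adjusted p from 0.0561 to 0.0655). Groups of 3 libraries are too small for a test of single outlying libraries.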

How the results depend on the processing

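The calls of Senp1, Senp3, Senp6 and Senp7 at d0, of Senp2 at d4 and of the 5 members that changed between days in mutant cells held in every alternative fit. Counts of members moved as follows. At d4, edgeR on reads called 1 member higher and 2 lower, and removal of the GC and length trend 2 lower. In WT cells between days, library totals called 3 lower, and in the interaction 1 lower. Past a log2 change of 1, the d0 count of 1 went to 0 with DESeq2, RLE size factors, all 12 libraries in 1 fit and the trend removed. The count in WT cells between days went from 1 to 0 with RLE and with the trend removed, which also gave 1 in place of 2 in mutant cells between days and 0 in place of 1 in the interaction. Of all genes at d4, 1025 passed both thresholds, 1690 with a pseudocount of 0.1, 439 with 5 and 2258 with edgeR on reads. The causes were not tested.

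With 1 library left out, the counts past a log2 change of 1 ranged from 0 to 1 at d0 and from 0 to 1 in WT cells between days, where the count of members lower ranged from 1 to 2. With the trend removed, Ranbp2 reversed at d0 to 0.25, and between days in mutant cells Desi1 went to 0.0020, Pias3 to 0.16 and Sumo2 to 0.20. Library totals moved the median log2 change of all genes between days in WT cells from -0.03 to -0.17 and the share of calls that were higher from 47.9% to 37.2%, and in the interaction the share from 48.5% to 62.9%.

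Replicate numbers did not pair the samples, as the deviations of same-numbered d0 libraries correlated at -0.69, -0.44 and 0.10. Between d0 libraries of different numbers the correlations ranged from -0.37 to 0.67, highest for WT replicate 1 with mutant replicate 2. With a replicate block, 4530 genes were called at d0 in place of 6164, and of the members only Senp1 in the interaction lost its call (-0.30, edgeR adjusted p = 0.0566).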
